A study of Mus musculus with 12 samples.

Results

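Megakaryocyte and erythroid priming genes were followed in sorted mouse LSK cells, as the 10 genes Gata1, Klf1, Gfi1b, Zfpm1, Pf4, Itga2b, Vwf, Epor, Hba-a1 and Car1. They were taken by gene name from a table of 35999 genes, and all 10 were found. LSK cells are bone marrow cells that lack lineage markers and carry Sca-1 and KIT, a fraction enriched for stem cells and the earliest progenitors of blood. RNA-seq libraries were made from LSK cells of mice labelled WT (n = 6) or Fancg KO (n = 6), 1 library per mouse, numbered as replicates 2 to 7 in each genotype. Fancg KO mice lack the Fanconi anemia gene Fancg, which encodes a subunit of the complex that starts repair of DNA crosslinks. Strain, age and sex were not given in the sources used here, no treatment was named, and the mice are given as Fancg-/- with no Cre driver or tissue restriction named. The comparison asks whether loss of Fancg is accompanied by other levels of these lineage genes in the stem and progenitor compartment.

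Stem and multipotent cells carry low levels of transcripts of several blood lineages before they commit, which is called lineage priming. The megakaryocyte and erythroid lineages share a progenitor and a set of transcription factors built around GATA1, which works with its cofactor FOG1 and replaces GATA2 as cells leave the stem state. Platelet genes are also carried by a subset of stem cells, so that Itga2b, Vwf and Pf4 can mark stem cells as well as megakaryocytes. In RNA from a pool of cells, fewer cells of a type and less RNA per cell cannot be told apart.

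Values are the deposited signal, taken from its label and its values as estimated reads per gene divided by 1 size factor per library. A library held between 1235110 and 2471413 reads by estimate, and between 14206 and 16460 genes above 0. The transcript listed as Lars2 took 15.6% to 36.2% of the signal of a library. Fancg itself did not separate the genotypes, with 10.3 ± 6.96 under the label WT and 8.53 ± 4.18 under the label Fancg KO (SD, n = 6 each, exact permutation test, two-sided, p = 0.636). Zmat3, a p53 target gene that the study is about, did separate them, with 6.92 to 13.02 in WT and 14.9 to 30.2 in KO (exact permutation test, two-sided, p = 0.0022). After adjustment over all genes tested it did not pass (limma, adjusted p = 0.9996). The paper singled out Zmat3 from RNA-seq of LSK cells of 6 KO and 6 WT mice. Its separation here is thus not an independent check of the labels. The paper also reported higher Zmat3 by qPCR in KO LSK cells. By western blot it reported more ZMAT3 protein in patient fibroblasts and in human cells depleted of Fanconi genes. WT and KO below stand for the labels. A pair of libraries, WT replicate 3 and KO replicate 7, had a summed signal of Y-linked transcripts of 26.6 and 49.7, against 189 to 435 in the other libraries. KO replicate 7 was also the library with the fewest reads, and differences of the 10 genes that move by over 1.5 times, turn or lose a call without it are given both ways.

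All 10 genes had a higher mean log2(signal + 1) in KO than in WT. Only for Itga2b was the exact permutation p below 0.05, and its difference did not hold after adjustment over all genes. Itga2b was higher in KO by 0.72 on the log2 scale (exact permutation p = 0.0043), while the other 9 had exact permutation p-values between 0.258 and 0.758. Genes entered the test across genes where their signal averaged 10 or more, as it did for 8887 genes. Gfi1b, Zfpm1, Itga2b, Vwf and Car1 passed it, and Gata1, Klf1, Pf4, Epor and Hba-a1 did not. Of the 5 tested, 1 reached an unadjusted p below 0.05 in limma, against a background of 3.67% of all genes tested in either direction, with 1.98% higher and 1.69% lower in KO. After Benjamini-Hochberg adjustment none did, and neither did any other gene of the table, a background of 0%. None of the 10 genes had groups that did not overlap, for which the background was 0.09% of genes tested in either direction and 0.045% higher in KO. Of all genes tested, 50.7% were higher in KO. Without KO replicate 7 the count higher in KO went from 10 to 8 of 10, as Gata1 and Vwf turned. Without WT replicate 5 it was 9 of 10, as Gata1 turned.

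**Figure D1:**
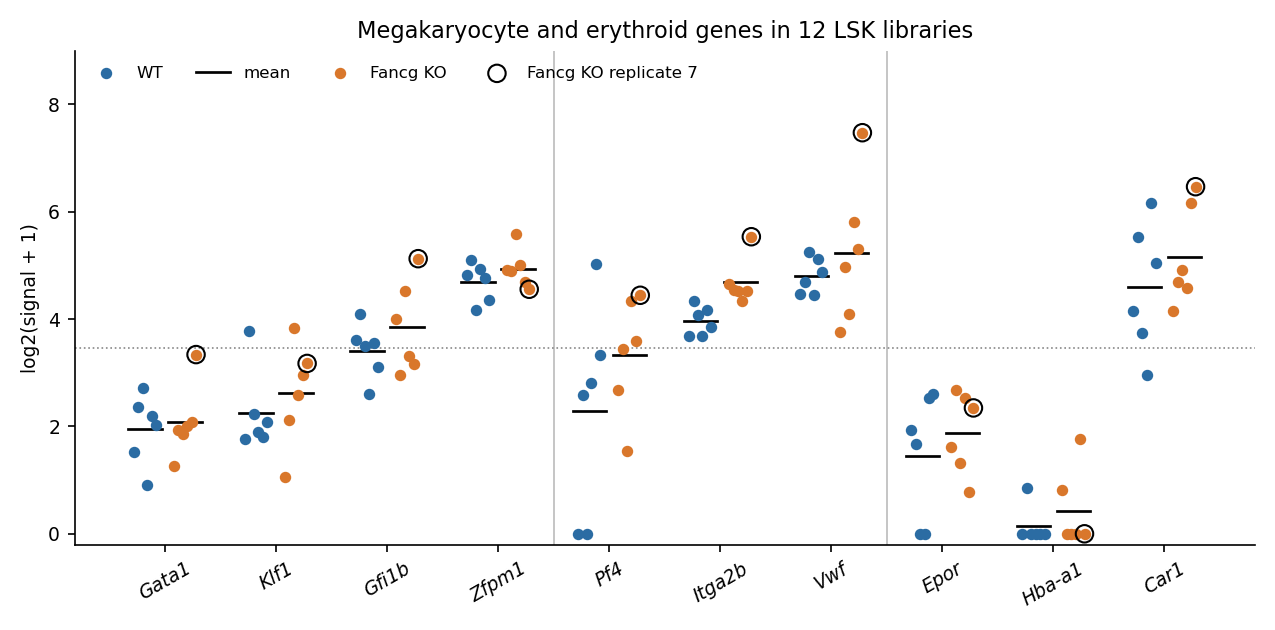
Log2(signal + 1) of the 10 genes in each library, WT in blue and KO in orange, with the mean of each genotype as a bar and KO replicate 7 ringed. Vertical lines part transcription factors, megakaryocyte genes and erythroid genes, and the dotted line marks a signal of 10, the minimum mean for the test. All 6 KO libraries lie above the WT median of Itga2b, and KO replicate 7 is the highest of 12 for Gata1, Gfi1b, Itga2b, Vwf and Car1.

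To compare levels between genes, the signal was divided by the mean length of the annotated transcripts of each gene. Car1 had the highest level per kilobase, 39.7 ± 28.8 (SD over 12 libraries), at percentile 78.7 of the genes tested. Zfpm1 followed with 24.0 ± 6.48 per kilobase, Pf4 with 21.99 ± 20.9 and Itga2b with 18.4 ± 8.09, against a median of 18.4 over all genes tested. Vwf had 15.5 ± 16.6 and Gfi1b 12.7 ± 7.89 per kilobase. These 6 thus lay between percentiles 32.5 and 78.7 of the genes tested, which are those above the filter, with Pf4 just under it. Klf1, Gata1 and Epor stood at 3.53 ± 2.64, 3.44 ± 2.18 and 2.30 ± 1.66 per kilobase. They did not pass the filter, so a low place among the genes tested follows largely from the filter and is not given. Hba-a1 came last with 0.558 ± 1.21 per kilobase. Among neighbours in this order, only Gfi1b and Klf1 differed by more than the spread over libraries, by 1.62 ± 0.74 (SD) on the log2 scale, and Gfi1b was the higher in 12 of 12 libraries. The length used moved some places. Divided by the longest transcript, Zfpm1 had 8.27 per kilobase and fell behind Pf4 with 16.9. Itga2b had 5.92 and Vwf 4.67 per kilobase, and both fell behind Gfi1b with 7.12. The percentiles and the median of all genes tested were taken with the mean length only.

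**Figure D2:**
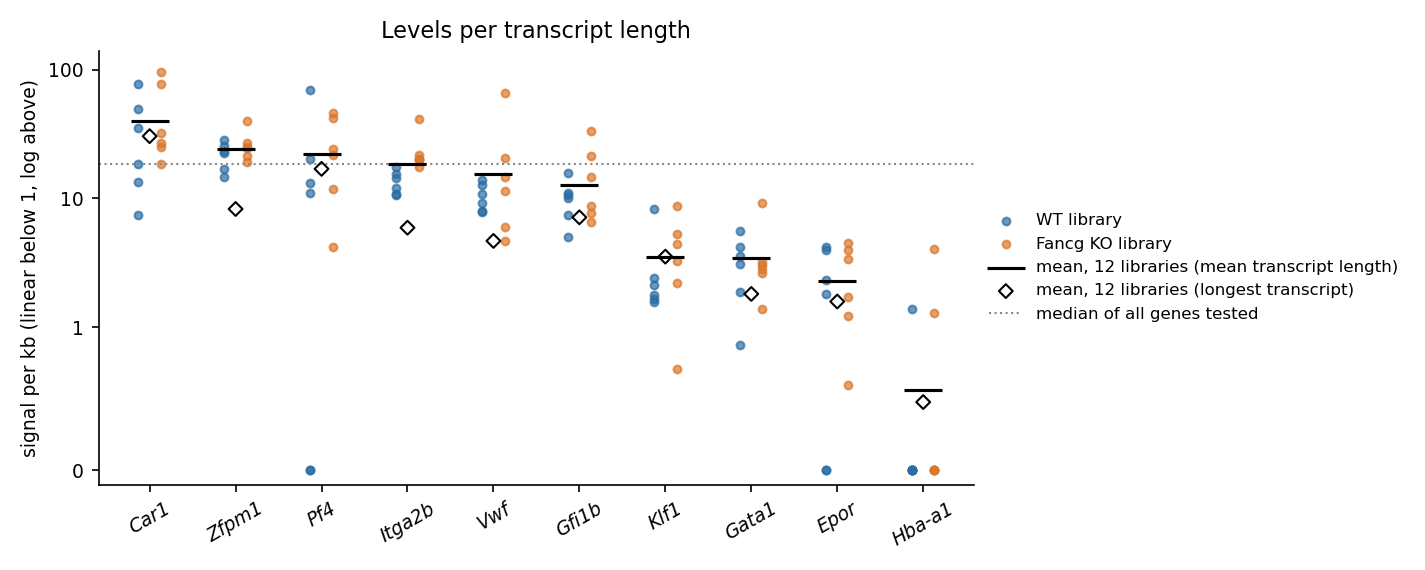
Signal per kilobase of mean transcript length in each library (WT blue, KO orange) on an axis that is logarithmic above 1 and linear below, with the mean of 12 libraries as a bar, the mean with the longest transcript as a diamond and the median of all genes tested as a dotted line. Car1 is highest with a mean of 39.7, and Klf1, Gata1, Epor and Hba-a1 lie well under the median of 18.4. That median is of genes above the filter, which Klf1, Gata1, Epor and Hba-a1 did not pass.

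GATA1 binds the DNA letters AGATAA on either strand, in which the first letter may also be T and the last may also be G,, and KLF1 binds C-rich stretches that fit CCNCNCCC. These letters were looked for in the RefSeq promoters (GRCm38.p6, 250 bases before to 50 after the gene's start), of which 8 of the 10 genes had one; Vwf and Car1 had none in the table. The GATA letters were present in 5 of the 8, against 33.0% of 27025 genes with a promoter in the table. Klf1, Gfi1b, Pf4, Epor and Hba-a1 each had them, and Gata1, Zfpm1 and Itga2b did not. The C-rich letters were also present in 5 of the 8, namely Gata1, Gfi1b, Zfpm1, Itga2b and Epor, against 51.9% of genes. Gfi1b and Epor held both. No binding was measured, so a match is a description of the letters only. The stretches around the GATA letters are shown for each of the 5 genes, 5′ to 3′ on the gene's strand with the letters in capitals, and those around the C-rich letters for Itga2b, the gene with the lowest p-value of the 10.
Klf1 (chr8:84901890-84901919, plus strand): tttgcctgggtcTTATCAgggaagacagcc
Gfi1b (chr2:28622085-28622114, minus strand): tctgtgaagtttTGATAAgcaaatgtggct
Pf4 (chr5:90772455-90772484, plus strand): actgggcaggcagtgaAGATAAaacgtgct
Epor (chr9:21963613-21963642, minus strand): ggtggctgtagcTTATCTgtccccagcctg
Hba-a1 (chr11:32283477-32283506, plus strand): tgtccgggcaacTGATAAggattccctgca
Itga2b, first (chr11:102470104-102470133, minus strand): gtcagctgcatGGGGGAGGtaagagctgta
Itga2b, second (chr11:102469856-102469885, minus strand): ccggggtgggcCCTCCCCCgtcctagtcga

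Among the transcription factors, Gata1 (chrX:7959260-7978071, minus strand, GRCm38, as all gene positions here) encodes the master regulator of both lineages. Its signal was 0.875, 3.32 and 5.59 (lowest, median, highest) in WT and 1.39, 2.91 and 9.12 in KO, which corresponds to 1.29 to 7.61 reads per library. The KO median lay under that of WT and the ranges overlapped, with KO replicate 7 alone above the highest WT library. The log2 difference was 0.12 (exact permutation p = 0.758), and it was -0.13 without KO replicate 7.

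Klf1 (chr8:84901928-84905291, plus strand) encodes the erythroid factor that turns on adult globin and red cell membrane genes. In WT it had 2.41, 2.98 and 12.7, and in KO 1.08, 5.90 and 13.3. A single library in each genotype, WT replicate 3 and KO replicate 4, reached above 12, and the groups overlapped over nearly the whole range. The log2 difference was 0.36 (exact permutation p = 0.465), on 1.0 to 17.0 reads per library.

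Gfi1b (chr2:28609450-28621982, minus strand) encodes a repressor needed for red cell and platelet formation. It had 5.11, 10.5 and 16.2 in WT and 6.75, 12.1 and 33.9 in KO. KO replicates 4 and 7 lay above every WT library, and the other 4 KO libraries lay within the WT range. The log2 fold change was 0.43 (SE 0.38, 95% interval -0.37 to 1.24, limma unadjusted p = 0.270, adjusted p = 0.9996). The KO mean was 15.8 ± 10.5 (SD, n = 6), and 12.1 without KO replicate 7, beside 10.2 ± 3.74 (SD, n = 6) in WT. Without it the log2 fold change was 0.18.

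Zfpm1 (chr8:122282141-122337251, plus strand) encodes FOG1, the cofactor through which GATA1 acts on many of its targets. It was the steadiest of the 4 factors, with 17.1, 26.7 and 33.4 in WT and 22.5, 28.9 and 46.8 in KO. Only KO replicate 4 lay above the highest WT library. The log2 fold change was 0.25 (SE 0.21, 95% interval -0.20 to 0.70, limma unadjusted p = 0.259, adjusted p = 0.9996). An annotated gene on the same strand, Gm20388, spans Zfpm1 and had a signal of 65.4 to 131, so reads could have been divided between them.

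Of the megakaryocyte genes, Itga2b (chr11:102453297-102470122, minus strand) encodes integrin alpha IIb, known as CD41, a subunit of the fibrinogen receptor of platelets and an early mark of megakaryocyte-biased stem cells. The WT libraries had 11.9, 19.2, 15.8, 11.8, 17.0 and 13.4 for replicates 2 to 7, and the KO libraries 24.0, 22.3, 21.9, 19.2, 22.2 and 45.4. All 6 KO libraries lay above the WT median, 5 of 6 lay above the highest WT library, and the overlap consisted of WT replicate 3 and KO replicate 5, both at 19.2. The means were 14.8 ± 2.99 (SD, n = 6) in WT and 25.8 ± 9.70 (SD, n = 6) in KO. The log2 fold change was 0.72 (SE 0.23, 95% interval 0.24 to 1.20, limma unadjusted p = 0.00597, rank 26 of 8887 genes), and the exact permutation p was 0.0043, where 0.0022 is the smallest that 6 against 6 mice allow. It did not hold after adjustment over all genes tested (limma, adjusted p = 0.9996). Without KO replicate 7 the KO mean was 21.9 and the log2 fold change 0.55 (limma unadjusted p = 0.0135). The counts behind it were small, between 9.89 and 28.3 reads per library. Fold changes here are of log2(signal + 1), which understates those of low genes. The p-values set a difference against the spread between these 12 libraries, which holds that of counting reads as well as that between mice.

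Vwf (chr6:125546774-125686679, plus strand) encodes von Willebrand factor, the large adhesive protein that platelets and endothelium store and that marks platelet-biased stem cells. It had 20.9, 26.6 and 37.0 in WT and 12.5, 34.5 and 177 in KO. The KO libraries spread to both sides of WT, with replicates 2 and 4 below every WT library and replicates 5, 6 and 7 above them. The coefficient of variation was 112% in KO and 23.9% in WT. The KO mean was 54.9 ± 61.6 (SD, n = 6), and 30.5 without KO replicate 7, beside 27.7 ± 6.62 (SD, n = 6) in WT. The log2 fold change was 0.42 (SE 0.47, 95% interval -0.57 to 1.42, limma unadjusted p = 0.381, adjusted p = 0.9996), and -0.02 without KO replicate 7 (limma unadjusted p = 0.941).

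Pf4 (chr5:90772435-90773383, plus strand) encodes platelet factor 4, a chemokine of the platelet granules. In WT, replicates 2 and 4 were listed at 0 and replicates 3, 5, 6 and 7 had 4.97, 6.01, 31.4 and 9.12. In KO, replicates 2 to 7 had 5.39, 9.82, 1.91, 19.2, 10.99 and 20.8. The highest library was thus a WT one, replicate 6, and no KO library was at 0. The difference of the mean log2 values, 1.04, was the widest of the 10 genes and did not pass (exact permutation p = 0.273), on at most 25.0 reads per library and with the 2 WT libraries at 0 in it. Its mean signal of 9.96 lay just under the filter.

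Among the erythroid genes, Car1 (chr3:14766216-14808368, minus strand) encodes carbonic anhydrase 1, an early erythroid enzyme that becomes abundant in red cells. It had 6.78, 24.4 and 70.4 in WT and 16.8, 27.0 and 87.5 in KO. WT replicate 6, KO replicate 6 and KO replicate 7 were the 3 highest libraries, at 70.4, 70.4 and 87.5. The medians lay close together and the ranges overlapped over most of their length. The log2 fold change was 0.56 (SE 0.51, 95% interval -0.53 to 1.66, limma unadjusted p = 0.290, adjusted p = 0.9996). The KO mean was 41.9 ± 29.4 (SD, n = 6), and 32.8 without KO replicate 7, beside 30.6 ± 24.1 (SD, n = 6) in WT. Without it the log2 fold change was 0.30.

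Epor (chr9:21958897-21963506, minus strand) encodes the erythropoietin receptor, through which red cell progenitors survive. WT replicates 4 and 5 were listed at 0 and replicates 2, 3, 6 and 7 had 2.82, 2.20, 4.78 and 5.07. KO replicates 2 to 7 had 2.06, 5.42, 1.49, 4.77, 0.721 and 4.08. The ranges overlapped nearly in full (exact permutation p = 0.468), and at most 6.49 reads lay behind a value.

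Hba-a1 (chr11:32283511-32284465, plus strand) encodes adult alpha globin, made in large amounts by maturing red cells. It was listed at 0 in 5 of 6 WT and 4 of 6 KO libraries. WT replicate 3 had 0.818, KO replicate 2 had 0.765 and KO replicate 6 had 2.41, which is at most 2.13 reads. It shares 75.4% of its 31-base stretches with Hba-a2, so reads of the pair could have been split, and Hba-a2 itself did not exceed 1.91 in any library. The adult beta globin genes Hbb-bs and Hbb-bt reached at most 2.44 and 4.17, so globin signal was under 5 in every library for each of these genes.

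**Figure D3:**
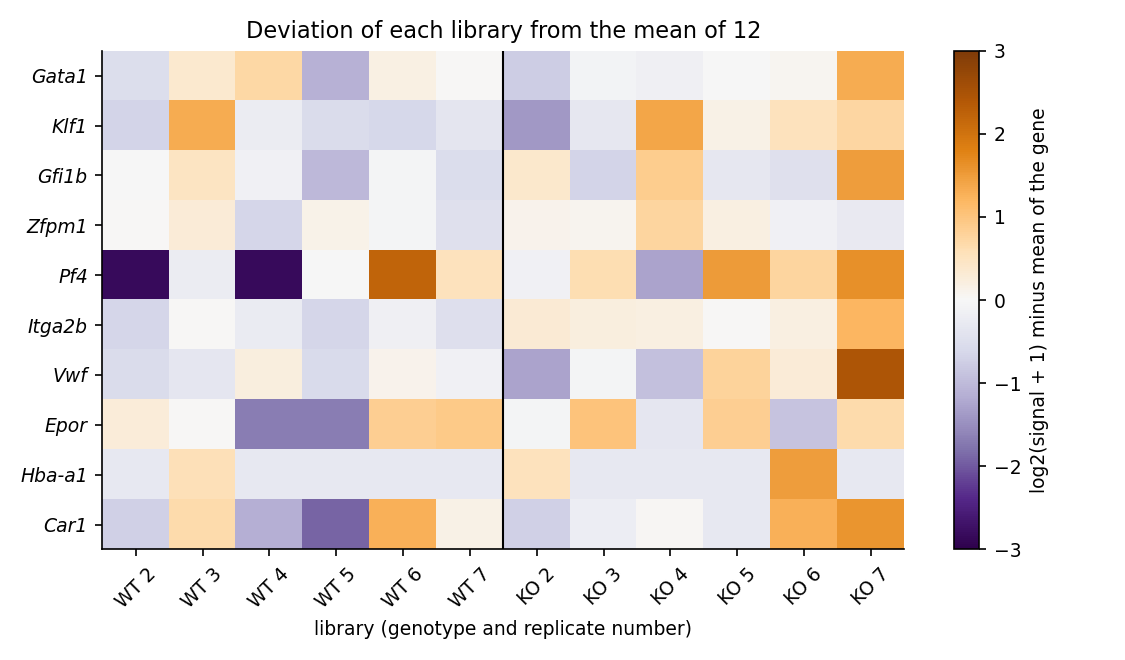
Difference of log2(signal + 1) of each library from the mean of the gene over 12 libraries, with genes as rows, libraries as columns, orange above and violet below the mean. For Itga2b all KO columns are at or above the mean, the KO replicate 7 column is above the mean for 8 of the 10 genes, and the 2 darkest violet cells are the WT libraries in which Pf4 was listed at 0.

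The 10 genes had their highest values in different libraries. KO replicate 7 was the highest of all 12 libraries for 5 of the 10, namely Gata1, Gfi1b, Itga2b, Vwf and Car1, where the same library was the highest for 14.9% of all genes tested. KO replicate 4 was the highest for Klf1 and Zfpm1, KO replicate 3 for Epor, KO replicate 6 for Hba-a1 and WT replicate 6 for Pf4. Genes of both lineages were thus high in KO replicate 7, while Zfpm1, at 22.5, had its lowest KO value there. The part that depth has in these levels was not tested.

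For each of the 5 tested genes, the genes of most similar profile over the 12 libraries were named by Pearson's r of log2(signal + 1). They were picked as the highest among all genes tested, and the points share the depth of their library, so r is a description. Car1 was closest to Aqp1, the water channel of red cells (r = 0.92, and 0.91 without KO replicate 7), ahead of Fut7 and Fancd2 with 0.89 each. Itga2b was closest to Mcm10, a DNA replication factor (r = 0.92, and 0.83 without KO replicate 7), ahead of Setd7 with 0.88 and Lypla2 with 0.87, the last of which was 0.69 without KO replicate 7. Vwf was closest to Sqstm1, an autophagy receptor (r = 0.92, and 0.80 without KO replicate 7), ahead of Hadha and Ndc80 with 0.91 each. Gfi1b was closest to Hist1h2ak, a histone gene, and to Fermt3, the integrin activator kindlin-3, and then to Wdr90, with 0.89 each. Zfpm1 was closest to Gm49336 and Tex10, with 0.87 each, and to Rnf169 with 0.85.

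The other genes of the lineage program were set beside these, in lists of textbook genes. Of the 16 partner transcription factors, all were tested, 9 were higher and 7 lower in KO, and none reached an unadjusted p below 0.05 in limma, with a median log2 fold change of 0.01. Lmo2, the bridge of the GATA1 complex, had 265 ± 43.5 in WT and 296 ± 28.9 in KO (SD, n = 6 each), a log2 difference of 0.17 (exact permutation p = 0.173). Myb, which drives progenitor growth, differed by 0.08 (exact permutation p = 0.524), and Meis1, a stem cell and megakaryocyte factor, by 0.05 (exact permutation p = 0.732). In mean signal, not divided by transcript length, the 16 partner factors stood at 17.1 or more, against 3.44 for Gata1 and 5.40 for Klf1. As a list the partner factors showed no shift.

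Of 22 other megakaryocyte genes, 9 passed the filter, 6 were higher and 3 lower in KO, none with an unadjusted p below 0.05, and the median log2 fold change was 0.19. F2r, a thrombin receptor, differed by 0.27 (exact permutation p = 0.143), and by 0.18 without KO replicate 7, and Plek, a platelet kinase substrate, by -0.04 (exact permutation p = 0.872). Of the 22 genes, 8 had a signal under 5 in every library, among them the platelet genes Ppbp, with at most 1.67, and Tubb1, with at most 0.781. Others were carried at low levels, such as Itgb3, the integrin partner of Itga2b, with 21.9 ± 8.69 in WT and 27.3 ± 11.4 in KO (SD, n = 6 each), and Gp5, a subunit of the platelet receptor for von Willebrand factor, with at most 15.9. Itgb3 and Gp5 were named after their values were seen. The summed signal of the list was 464, 540 and 830 (lowest, median, highest) in WT and 409, 596 and 791 in KO. Plek alone had 349 ± 134 in WT and 331.5 ± 91.8 in KO (SD, n = 6 each), so the sum largely follows this gene.

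Of 28 other erythroid genes, 27 were in the table and 7 passed the filter, 5 higher and 2 lower in KO, none with an unadjusted p below 0.05, and the median log2 fold change was 0.22. Epb41, a red cell membrane skeleton protein, had 179 ± 38.3 in WT and 247 ± 110 in KO (SD, n = 6 each), a log2 difference of 0.39 (exact permutation p = 0.130). Car2, the second erythroid carbonic anhydrase, lay at -0.14 (exact permutation p = 0.418), and at -0.26 without KO replicate 7, so it did not follow Car1 in sign. Slc25a37, the mitochondrial iron carrier, differed by 0.05 (exact permutation p = 0.368). Slc4a1, the anion exchanger of mature red cells, and Hbb-bh1 were at 0 in every library. The summed signal was 462, 536 and 610 in WT and 510, 592 and 774 in KO. Epb41 and Car2, the latter at 118 ± 19.0 in WT and 108.5 ± 27.9 in KO (SD, n = 6 each), had the largest parts in it.

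Of the 8 heme synthesis genes, 7 passed, 6 higher and 1 lower in KO, none with an unadjusted p below 0.05, with a median log2 fold change of 0.13. Fech, which inserts the iron, had 31.04 ± 8.34 in WT and 40.0 ± 9.64 in KO (SD, n = 6 each), a log2 difference of 0.36 (exact permutation p = 0.0952). Alas1, the first enzyme in most cells, differed by 0.19 (exact permutation p = 0.734) and Alad, the second, by 0.10 (exact permutation p = 0.697).

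**Figure D4:**
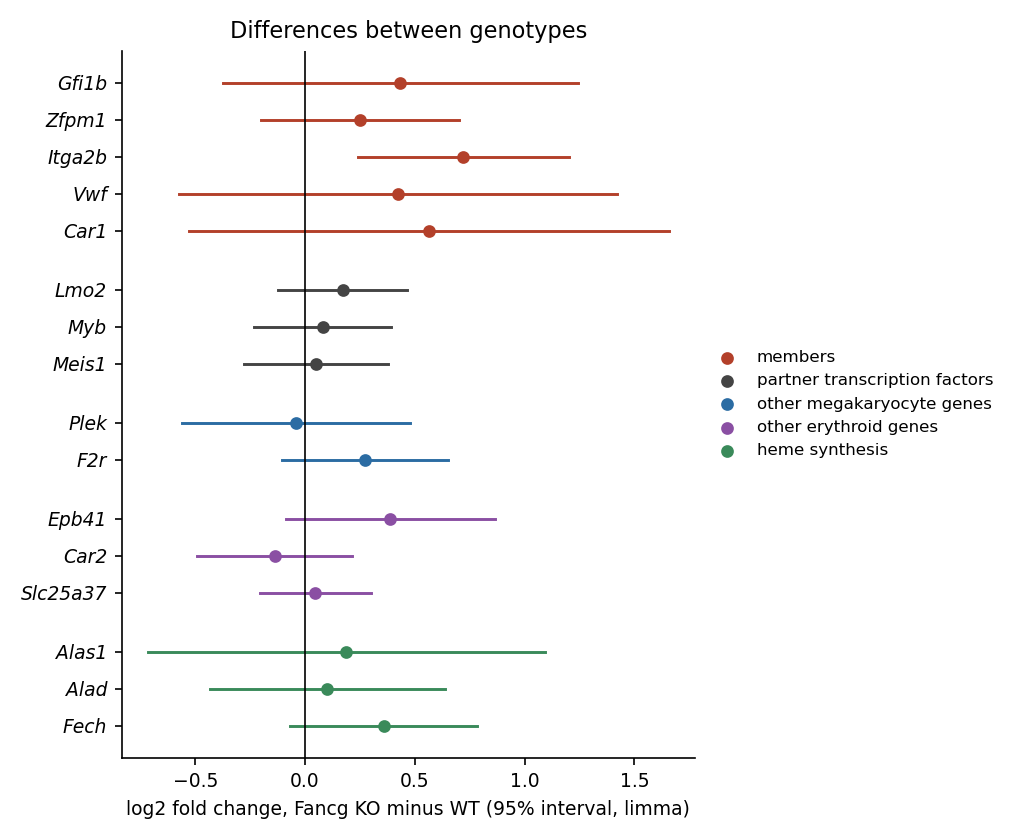
Log2 fold change, KO minus WT, with the 95% interval of limma, for the 5 genes that passed the filter (red) and for 11 other genes of the lineage program. Among the intervals drawn, that of Itga2b, 0.24 to 1.20, is the only one that does not hold 0.

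Markers of other cells that a sort could hold were read as a check. The granulocyte and monocyte markers summed to 406, 757 and 2068 in WT and 497, 880 and 2246 in KO, with Ly6g, which marks neutrophils, at 0 in every library. Their most abundant genes were Mpo, with 661 ± 450 in WT and 704 ± 494 in KO (SD, n = 6 each), Prtn3 with 104 ± 43.0 and 110 ± 52.4, and Elane with 84.1 ± 88.0 and 84.6 ± 92.9. The 11 lymphocyte markers summed to 79.5, 199 and 244 in WT and 98.7, 172 and 375 in KO, led by Ebf1, Nkg7 and Cd79b. The mast cell, basophil and eosinophil markers summed to 28.7, 37.9 and 93.3 in WT and 28.3, 43.4 and 73.6 in KO, led by Cpa3, Mcpt8 and Ms4a2. None of these 3 lists held a gene with an unadjusted p below 0.05. Mpo, a granule enzyme of myeloid progenitors, was highest at 1513 in WT replicate 6 and at 1650 in KO replicate 6, the same libraries in which Car1 was 70.4, while in KO replicate 7, where Car1 was 87.5, Mpo was at 668. Its part in the level of Car1 was not tested.

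Of the LSK markers, Kit and Cd34 had 336 ± 34.1 and 646 ± 43.2 in WT and 351 ± 62.5 and 595 ± 56.5 in KO (SD, n = 6 each). Ly6a, the gene of Sca-1, was low at 11.5 ± 5.03 in WT and 10.1 ± 4.60 in KO. Of the 10 markers 8 were tested, 3 higher and 5 lower in KO. Flt3, the receptor of lymphoid-primed progenitors, was the only gene of these 8 lists with an unadjusted p below 0.05 in limma. Its exact permutation p was 0.0628. It had 489 ± 95.5 in WT and 358 ± 127 in KO, a log2 fold change of -0.51 (95% interval -0.997 to -0.02, limma unadjusted p = 0.0423, adjusted p = 0.9996). Without KO replicate 7 it was -0.46 (limma unadjusted p = 0.0813). Slamf1, a stem cell surface marker named here after its values were seen, had 10.9 ± 4.62 in WT and 18.3 ± 9.20 in KO (15.1 without KO replicate 7), a log2 difference of 0.69 (exact permutation p = 0.106). The part that the makeup of the sorted cells has in the level of Itga2b was not tested.

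**Figure D5:**
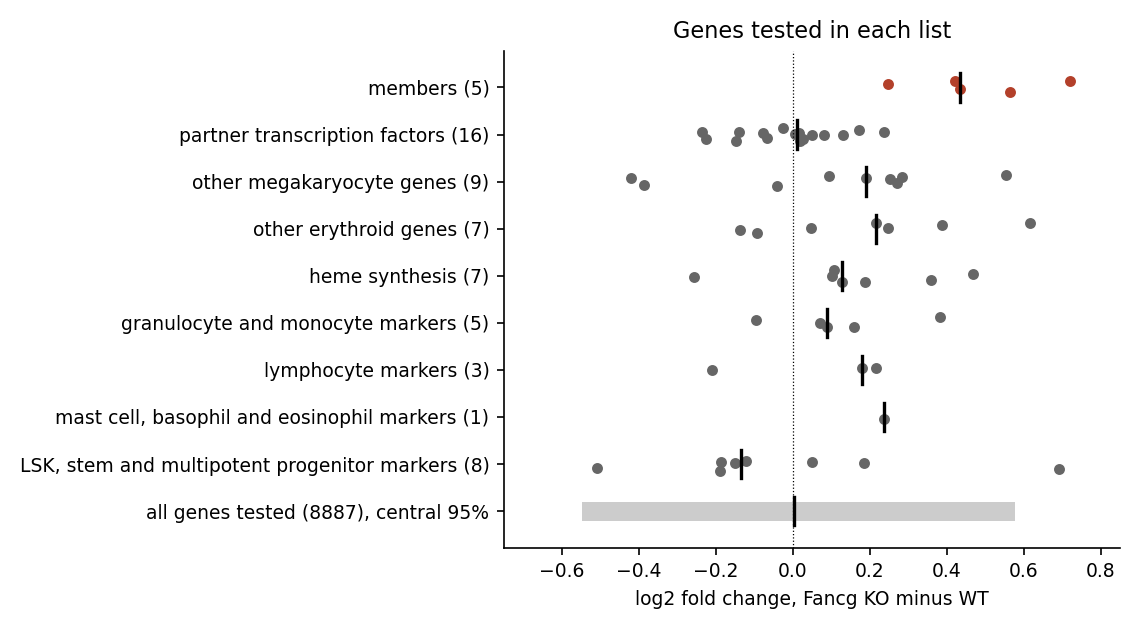
Log2 fold change, KO minus WT, of each gene that passed the filter, by list, with the number of genes in brackets, the median of the list as a bar and the central 95% of all genes tested, -0.55 to 0.58, in grey. The 5 genes described here lie above 0 with a median of 0.43 (0.30 to 0.72 with 1 library left out), and the partner transcription factors lie on both sides of 0.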

How the data were processed

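RNA-seq of LSK cells from 12 mice (6 WT, 6 Fancg KO) was analysed. Libraries were made with the CATS kit and sequenced on an Illumina NextSeq. The authors deposited a single table of signal by gene. From its label and values these were taken to be read counts estimated with kallisto and divided by a size factor. The mouse build and annotation are not given in the sources used here. Between 10.4% and 11.4% of values above 0 were whole multiples of the step of 1 read (tolerance 0.001), so whole reads were not recovered and no test made for counts was used. Read numbers in the text are signal divided by that step and are estimates.

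Signal was used as deposited, as log2(signal + 1). Genes with a mean of at least 10 were tested with limma 3.58.1 in R 4.3.3 (trend, two-sided, no covariate, Benjamini-Hochberg over 8887 genes). Each of the 10 genes was also tested with an exact permutation test of its log2 values (two-sided). The 10 genes and the lists were chosen with earlier results of these data known. From each list, the text names the 3 genes of highest mean signal, markers at or near 0 and any gene with an unadjusted p below 0.05. For each tested gene of the 10 it names the 3 of highest correlation. Some genes of the lists are not reported here. Gene positions and lengths are from GENCODE on GRCm38. Only the limma fit was tested on simulated data. All columns of the table were matched to a library, and 0 were left out.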

Additional observations from a re-analysis of the deposited data

Results flagged for a closer look

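In 18 of 72 groups of 6 libraries, 1 library stood apart from the other 5 by Dixon's test on the signal, without log2. A level of 0.05 would give 3.6 for normally distributed values in independent groups. The signal is skewed and the groups share libraries, so 3.6 is not the count expected here. Each flagged value was the highest of its group. KO replicate 7 stood apart in Gata1 with 9.12 (1.39 to 3.22 in the other KO libraries), in Itga2b with 45.4 (19.2 to 24.0), in Vwf with 177 (12.5 to 54.9) and in Car2 with 164 (92.1 to 108). KO replicate 4 stood apart in Zfpm1 with 46.8 (22.5 to 31.3) and in Epb41 with 460 (158 to 250). WT replicate 3 did so in Klf1 with 12.7 (2.41 to 3.67 in the other WT libraries), in Fech with 47.2 (24.9 to 32.6) and in Hba-a1 with 0.818 (0 in the others). WT replicate 2 did so in Epb41 with 251 (148 to 185).

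WT replicate 6 stood apart in Pf4 with 31.4 (0 to 9.12), in Elane with 253 (6.02 to 92.5) and in Ms4a2 with 10.1 (4.18 to 6.36). KO replicate 6 did so in Hba-a1 with 2.41 (0 to 0.765), in Alas1 with 178 (50.2 to 78.3), in Elane with 270 (16.2 to 64.8), in Mpo with 1650 (318 to 754) and in Ms4a2 with 13.7 (3.33 to 6.53). Hba-a1 rests on at most 2.13 reads.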

How the results depend on the processing

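No gene passed the adjusted threshold of limma in any setting. Itga2b kept its direction and its unadjusted call in all fits in which it was tested, with log2 fold changes of 0.60 to 0.77 over the alternatives and 0.55 to 0.79 with 1 library left out. With a mean signal of at least 50, none of the 10 genes was tested and the count of called members was 0. Over all genes tested, 326 had an unadjusted p below 0.05, and this became 836 with no filter, 91 with a mean of at least 50, 132 with signal scaled to the total without Lars2, and 276 to 385 with 1 library left out. The Lars2 scaling made 93 of its calls higher and 39 lower, 70.5% higher against 54.0%. The 1 call in the lists of other genes became 3 with no filter, among them Flt3 and Rhd, 0 with the Lars2 scaling, with quantile normalization and without trend, and 0 to 5 with 1 library left out. Divided by the longest transcript, Zfpm1 had 8.27, Itga2b 5.92 and Vwf 4.67 per kilobase.

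Without both libraries low in Y-linked signal, Vwf was at -0.0503, Gata1 at -0.0465 and Myb at -0.0221, and Plek was at 0.0144 with the Lars2 scaling. With 1 library left out, log2 differences spanned -0.13 to 0.29 for Gata1, -0.0249 to 0.72 for Vwf, -0.00607 to 0.27 for Alad, -0.0658 to 0.51 for Alas1, -0.0154 to 0.13 for Meis1 and -0.16 to 0.11 for Plek. The cause was not tested. The call of Flt3 was lost in 12 of 22 alternatives.

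Replicate numbers share no stated origin, so same-numbered libraries were not taken as pairs in the tests above. Their deviations from the group means did correlate, at a mean of 0.196 against -0.039 between different numbers. In 4 of 6 pairs the correlation was above 0.1. The reason was not tested. 5 of 6 WT and 4 of 6 KO libraries correlated best with their own number. With a replicate block, 476 genes were called without adjustment, and 3 of them were in the lists, among them Fech and Flt3. Itga2b then had a limma unadjusted p of 0.0106 and a limma adjusted p of 0.889. Taken as 6 pairs, it was higher in KO in 6 of 6. The exact sign-flip test of the pair differences (two-sided) gave p = 0.0313, the smallest that 6 pairs allow. Values of under 10 reads limit Gata1, Epor and Hba-a1 in every library. Klf1, with 1.0 to 17.0 reads, and Pf4, with 0 to 25.0, were under 10 in most libraries. Gfi1b and Itga2b had 7.01 and 9.89 reads in their lowest library.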
